A study of Mus musculus with 157 samples.

Results

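Members of the BCL2 family other than the p53 death genes Bax, Bbc3 and Pmaip1 were followed along polysome gradients of activated B cells before and after DNA damage. Whether p53 controls any of these members was not tested. The set was chosen by gene name and comprised 10 members: Bcl2, Bcl2l1, Mcl1, Bcl2a1b, Bcl2a1d, Bcl2l11, Bak1, Bid, Bad and Bcl2l12. Of these, 8 had a row among the 19600 genes of the count table. Bcl2a1b and Bcl2a1d had none, by symbol or by Ensembl ID, and are not analysed here. Splenic B cells of adult C57BL/6Babr mice were held in lipopolysaccharide (LPS, a bacterial mitogen, 10 µg/ml) for 48 h (LPS group), or were then given etoposide at 20 µM for 4 h (LPS+ET group). In the third group (LPS+ET+KU) the labels state 47 h of LPS and then 1 h with KU55933, an inhibitor of ATM, at 10 µM before the same etoposide exposure. All 3 groups were thus LPS-activated, no resting cells are among them, and all extracts came from cells treated with cycloheximide, which holds ribosomes on mRNA. Cell extracts were spread on sucrose gradients, and each of fractions 4 to 16 became one 3′ end sequencing library, with 4 gradients per treatment and 13 fractions per gradient. Monosomes lie in fractions 4 to 7, light polysomes in 8 to 10 and heavy polysomes in 11 to 16.

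Proteins of the BCL2 family decide whether the outer mitochondrial membrane is breached during apoptosis. Guardians such as BCL2, BCL-XL (Bcl2l1) and MCL1 hold the pore-forming effectors BAX and BAK (Bak1) in check, and BH3-only proteins such as BIM (Bcl2l11), BID and BAD bind the guardians or push the effectors into action. In B cells BIM limits survival and BCL2, BCL-XL and MCL1 sustain it. Etoposide traps topoisomerase II on cut DNA and leaves double-strand breaks, to which the kinase ATM responds upstream of p53. Bax, Bbc3 and Pmaip1 are p53 targets of the same family and are given here only beside the members.

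The table tallies 3′ end tags at poly(A) sites, and the sites counted for a gene show which 3′ ends its values describe. The 30 bases that precede the main counted site of each member on its transcript are shown here, with the poly(A) signal AATAAA, or failing that ATTAAA, in capitals. They were read 5′ to 3′ from GENCODE M21 transcripts of the GRCm38 assembly.
Bcl2: aaaaaataaAATAAAatacagtgagcagca
Bcl2l1: agtAATAAAtggtgtctgtgactctgtgaa
Mcl1: taaaacaaatatgtatttcttgtctactaa
Bcl2l11: acctcaagttgtAATAAAcatacaaaatgg
Bid: tttcttcaaAATAAAaggctcttctctaga
Bad: cgtgctttatAATAAAgcctgcgcatgtgc
Bak1: gtctggaAATAAActgtgcaatgcccccaa
Bcl2l12: ctgtATTAAAaactttgttctttaactaga
AATAAA lay in the window of 6 members and ATTAAA in that of Bcl2l12, whereas the window of Mcl1 held neither. Of the main sites of 6882 genes, 59.3% had AATAAA in this window, 14.9% had ATTAAA and 25.8% had neither.

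Each main site lies in a 3′ UTR exon of GRCm38. Bcl2 (ENSMUSG00000057329, chromosome 1, 106538178 to 106714274, minus strand) was counted at 3 sites. Its site at 106538178, the end of transcript Bcl2-201 in exon 2 of 2, held 78.6% of its 20188 counts over all libraries. A site at 106712173, in the 3′ UTR of the short transcript Bcl2-202, held 11.5%, and one at 106541785, 3607 bases before the end of Bcl2-201, held 9.90%. Mcl1 (ENSMUSG00000038612, chromosome 3, 95658721 to 95663176, plus strand) was counted mainly at 95661941, in exon 3 of 3 and 1235 bases before the end of Mcl1-201, with 60.8% of 48503 counts. A site at 95663179, 3 bases past the annotated gene end, held 33.9%, and one at 95661015 held 5.30%. Bcl2l11 (ENSMUSG00000027381, chromosome 2, 128126038 to 128162547, plus strand) was spread over 7 sites, the main one at 128160960 with 39.9% of 16405 counts, followed by 128162547 with 24.8% and 128131495, the end of Bcl2l11-202, with 13.8%. The other 5 members were counted at 1 site each. These were Bcl2l1 at 152780668 on chromosome 2, Bid at 120893119 on chromosome 6, Bad at 6951893 on chromosome 19, Bak1 at 27019812 on chromosome 17 and Bcl2l12 at 44991222 on chromosome 7. The Bid site lay 265 bases before the transcript end, and the others at a transcript end. The Bak1 and Bcl2l12 sites also lie within genes on the opposite strand (Ggnbp1 and Gm15545), so their counts are uncertain wherever strand was not used in counting.

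**Figure D1:**
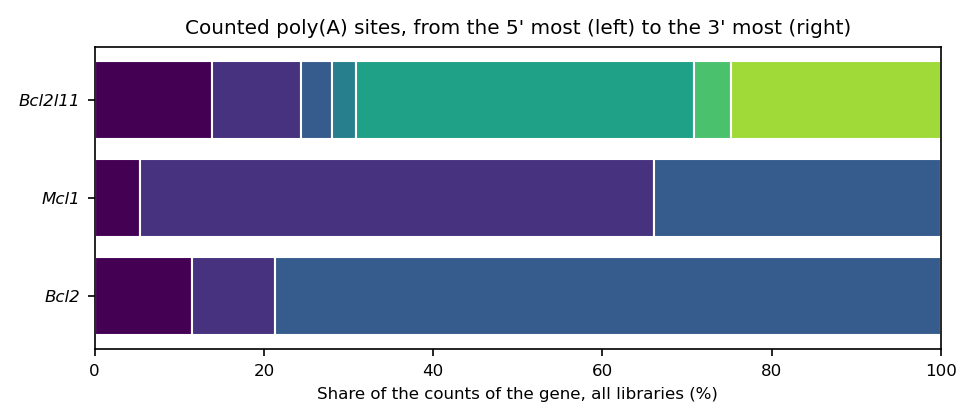
Share of the counts at each counted poly(A) site of Bcl2, Mcl1 and Bcl2l11, in percent of the counts of the gene over all libraries, with sites ordered along the transcript from left to right. One site carries 78.6% of Bcl2 and 60.8% of Mcl1, whereas the main site of Bcl2l11 carries 39.9%.

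Library totals over fractions 4 to 16 ran from 14724 to 4170688 counts (median 811932) and gradient totals from 6404957 to 21449781. Gradients are named by treatment and library pool (LUL15 to LUL18). In the LPS+ET gradient of LUL16, heavy polysomes held 30.4% of all counts, against 60.5% to 68.2% in the other LPS+ET gradients. One library went against its label. The fraction 15 library labelled LPS+ET of pool LUL15 was most alike (r = 0.958 over 5550 genes) to fraction 15 of the LPS gradient of the same pool, and all 5 libraries most alike to it were LPS libraries. It was the only etoposide library with 5 LPS libraries in that place. Its level of Cdkn1a, the p53 target that encodes p21, was 71.4 CPM (counts per 1e6 counts), against 414 to 486 CPM in fraction 15 of the other LPS+ET gradients and at least 147 CPM in all other etoposide libraries. The median over LPS libraries was 26.9 CPM. It is called the library labelled LPS+ET here, and results that rest on it are given with and without it. Another etoposide library (LPS+ET+KU, LUL16, fraction 16) had 3 LPS libraries among its 5 nearest and held 132994 counts. Of 52 LPS libraries 2 had fewer than 3, both of fraction 4 and shallow, with 17629 and 14724 counts.

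The 7 B cell markers on the list summed to 2134 to 2835 CPM in LPS, to 1611 to 2077 CPM after etoposide and to 1824 to 2611 CPM with the inhibitor added. Of the markers of other cell types, those with a row in the table were 5 of T cells, 2 of NK cells, 1 of erythroid cells, 8 of myeloid cells and 3 of plasma cells. The T cell markers, Cd3e, Cd3d and Cd3g among them, summed to at most 4.48 CPM in any gradient, the NK cell markers to at most 1.77 CPM and the erythroid marker Alas2, at 0 in all LPS gradients, to at most 0.224 CPM. Myeloid markers summed to 49.4 to 108 CPM, 70.7 to 182 CPM and 80.0 to 134 CPM in the same order, and plasma cell markers to 130 to 199, 113 to 293 and 68.8 to 211. Of the latter, Sdc1 had means of 5.17, 61.3 and 16.3 CPM, Prdm1 of 51.9, 45.8 and 26.6 CPM and Xbp1 of 101.4, 104.2 and 102.9 CPM, so they did not move together. The part of these differences in the results was not tested. In bulk extracts, fewer cells of a type and less mRNA per cell cannot be told apart.

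In LPS-activated B cells Mcl1 was the most abundant member and Bcl2 the next. Ribosome-associated mRNA is given here as CPM of the counts summed over fractions 4 to 16. Each fraction enters this sum by the depth of its library, which does not measure its mRNA. In the LPS+ET gradient of LUL16, fractions 10, 11 and 12 held only 116995, 54686 and 33476 counts. Since a 3′ end tag is counted once per transcript end, these levels do not scale with transcript length. Mcl1 stood at 331 ± 56.1 CPM (SD, n = 4, as for all CPM means), Bcl2 at 241 ± 28 and Bak1 at 165 ± 66.2. The levels then fell to 74.0 ± 18.5 for Bad, 68.6 ± 14.6 for Bid, 59.2 ± 1.70 for Bcl2l11 and 39.9 ± 4.59 for Bcl2l1. Bcl2l12, a divergent family member, came last with 5.43 ± 2.73 CPM. Neighbours in this order whose gradients overlapped were Bcl2 and Bak1, Bad and Bid, and Bid and Bcl2l11.

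**Figure D2:**
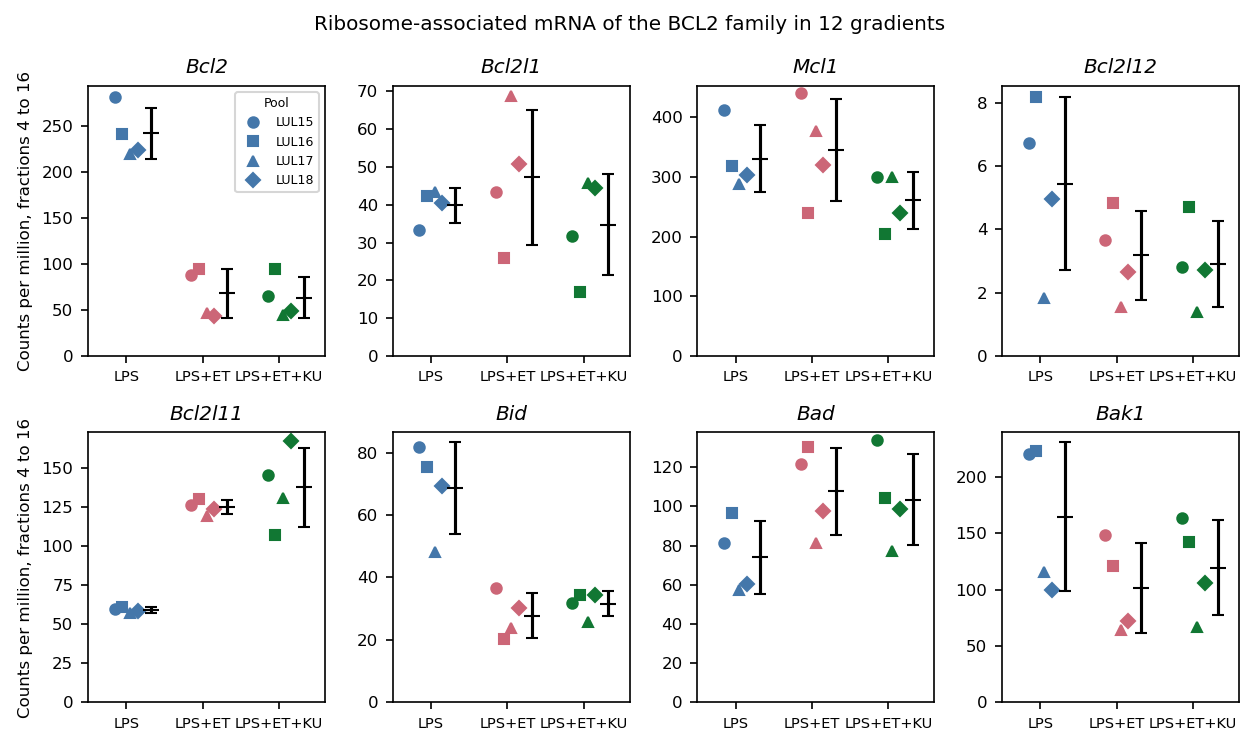
Ribosome-associated mRNA of the 8 members in CPM of fractions 4 to 16 in each of 12 gradients, coloured by treatment and shaped by library pool, with mean ± SD of 4 gradients in black. The Bcl2 and Bid levels of all etoposide gradients lie below those of the LPS gradients, and the Bcl2l11 levels above them.

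LPS+ET was first compared with LPS to find which members changed in ribosome-associated mRNA after DNA damage. Total mRNA was not used here, so changes in mRNA abundance and in association with ribosomes cannot be told apart in these levels. Bcl2 and Bid fell and Bcl2l11 rose in edgeR, and the other 5 members did not pass an adjusted p of 0.01. These 3 of 8 members stand beside 12.7% of all 12755 genes tested. The median log2 difference was -0.44 over the 8 members and 0.03 over all genes. With fraction 15 left out of every gradient, the same 3 members were called beside 13.2% of 12618 genes. The LPS+ET and LPS gradients did not overlap in CPM for Bcl2, Bid and Bcl2l11 among the members, as for 26.4% of all genes. When the library pool was added as a block, 5 members were called beside 26.7% of all genes (26.8% without fraction 15), the added ones being Bak1 and Bcl2l12.

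Bcl2 showed the largest fall of any member. Its level was 281, 241, 219.7 and 224 CPM in the LPS gradients of LUL15 to LUL18 and 87.8, 94.3, 46.4 and 43.7 CPM in the LPS+ET gradients. All 4 etoposide gradients lay below the lowest LPS gradient. The log2 difference was -1.95 ± 0.28 (SE, 95% interval -2.56 to -1.34, edgeR adjusted p 0.000274). In the LUL15 gradient, 389 of its 1005 Bcl2 counts came from the library labelled LPS+ET that resembled LPS libraries, where Bcl2 reached 434 CPM, against 19.5 to 57.0 CPM in the other heavy fractions of that gradient. Without that library the LUL15 level was 58.4 CPM and the LPS+ET mean 60.7 ± 23.3 CPM. With fraction 15 left out of every gradient the log2 difference was -2.08 (adjusted p 0.000118).

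Mcl1, whose short-lived protein supports B cell survival, was not called. It stood at 413, 318, 289 and 304 CPM in LPS and at 441, 239.5, 377 and 321 CPM in LPS+ET, and the groups overlapped. The log2 difference was -0.06, with a 95% interval from -0.48 to 0.36 (edgeR adjusted p 0.866). Bcl2l1, which encodes BCL-XL, stood at 33.2, 42.3, 43.5 and 40.4 CPM in LPS and 43.4, 25.9, 68.8 and 50.8 CPM in LPS+ET. Its groups overlapped as well, with a log2 difference of 0.13 and a wider interval, from -0.57 to 0.84 (adjusted p 0.820). Either guardian could thus have moved by an amount within these intervals, which come from fits without the pool. With the pool as a block neither was called (Mcl1 -0.08, edgeR adjusted p 0.684, and Bcl2l1 0.03, 0.940).

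Bcl2l11, the gene of the BH3-only activator BIM, rose evenly in all pools. Its level was 59.7, 61.3, 57.4 and 58.3 CPM in LPS and 126.4, 130.1, 119.5 and 124.1 CPM in LPS+ET. The spread within each group was small and the groups lay far apart. The log2 difference was 0.97 ± 0.16 (SE, edgeR adjusted p 0.000903), and 1.00 (0.000737) with fraction 15 left out. Bid, whose protein links death receptors to mitochondria once caspase-8 has cut it, moved the other way. It stood at 81.7, 75.4, 48.0 and 69.4 CPM in LPS and 36.7, 20.3, 23.98 and 30.3 CPM in LPS+ET, a log2 difference of -1.42 ± 0.21 (adjusted p 0.000308). The 2 BH3-only activators of the set thus changed in opposite directions.

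Bad, a BH3-only sensitizer that binds guardians and is kept inactive by phosphorylation, stood at 81.4, 96.6, 57.3 and 60.6 CPM in LPS and 121.3, 130.2, 81.1 and 97.6 CPM in LPS+ET. It was higher after etoposide in each pool, but the groups overlapped and it was not called (log2 difference 0.42 ± 0.22, edgeR adjusted p 0.196, and 0.0215 with the pool as a block). Bak1, which encodes the pore-forming effector BAK, stood at 220.4, 224, 115.5 and 100.1 CPM in LPS and 148, 121.3, 64.6 and 72.0 CPM in LPS+ET. LUL15 and LUL16 were high and LUL17 and LUL18 low in both groups, and the level was lower after etoposide in all 4 pools. Bak1 was not called without the pool (-0.83 ± 0.34, adjusted p 0.0954) and was called with it (-0.82, 0.000586). Bcl2l12, at 1.38 to 8.18 CPM over the 12 gradients, gave -0.94 ± 0.47 (0.179) and, with the pool, -0.86 (0.00408).

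**Figure D3:**
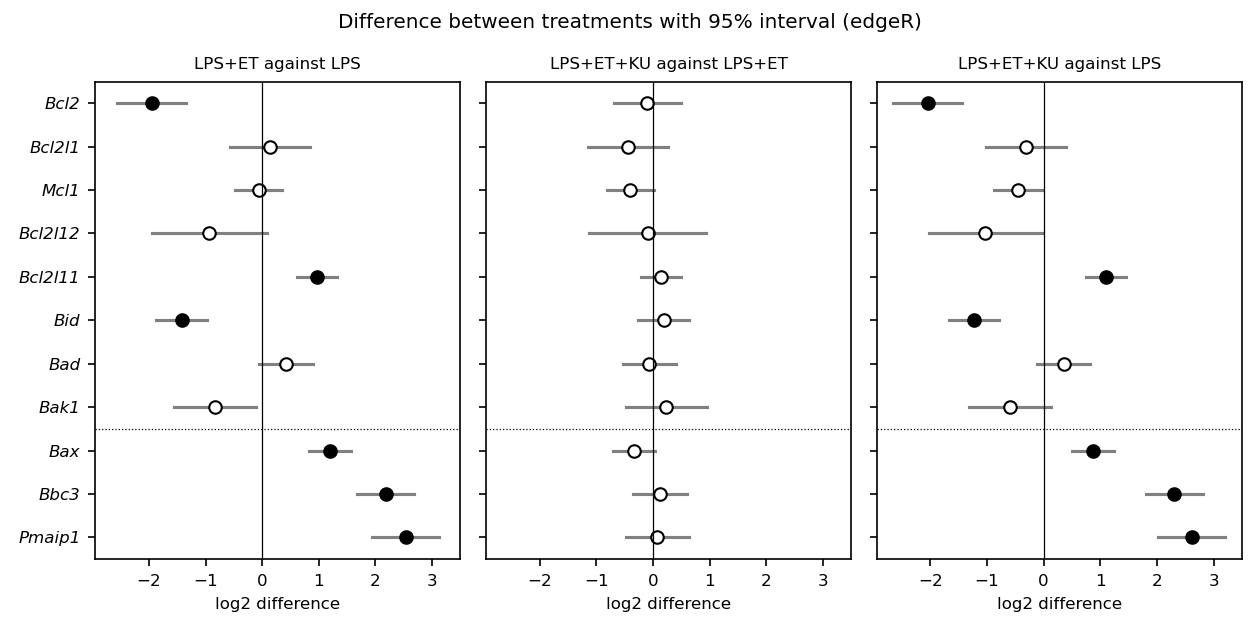
Log2 differences in ribosome-associated mRNA between treatments for the 8 members and, under the dotted line, for Bax, Bbc3 and Pmaip1, with 95% intervals from edgeR on 12 gradients without the pool as a block. Filled points passed an adjusted p of 0.01, which were Bcl2, Bid, Bcl2l11, Bax, Bbc3 and Pmaip1 in both comparisons with LPS, and none in LPS+ET+KU against LPS+ET.

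The second comparison, LPS+ET+KU against LPS+ET, asked what ATM inhibition changed in damaged cells. No member was called by edgeR in fractions 4 to 16, where 0.455% of all genes were (58 genes, with 2031 at an unadjusted p under 0.05), nor with the pool as a block (6.36%). No member was called in monosomes, light or heavy polysomes either, beside 0.213%, 0.292% and 0.572% of genes, and DESeq2 called none in any of these. None of the 8 members had non-overlapping groups, as did 8.26% of all genes. Bcl2 stood at 65.1, 94.6, 44.8 and 49.1 CPM with the inhibitor, which overlapped LPS+ET, and differed by -0.10 on the log2 scale (95% interval -0.69 to 0.49). Without fraction 15 this value changed sign, to 0.06. Bcl2l11 stood at 145.7, 107.5, 131 and 167 CPM (0.14, interval -0.21 to 0.49) and Bid at 31.97, 34.4, 25.8 and 34.5 CPM (0.19, -0.25 to 0.64). Mcl1 stood at 300, 204, 299.9 and 239 CPM, lower than LPS+ET in every pool, with a log2 difference of -0.40 whose interval reached from -0.82 to 0.02 (adjusted p 0.350).

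Against LPS, and thus against the same 4 control gradients, LPS+ET+KU gave calls in the same 3 members, beside 10.7% of all genes. Bcl2 differed by -2.05 ± 0.28 (SE, edgeR adjusted p 0.000316), Bid by -1.23 ± 0.21 (0.00124) and Bcl2l11 by 1.11 ± 0.16 (0.000528). Their groups did not overlap, as for 26.3% of all genes. With the pool as a block (28.1% of all genes called), Bak1 (-0.56, 0.00718) and Bcl2l12 (-0.99, 0.00140) were also called. These comparisons share the LPS gradients and are not independent of each other.

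Ratios of guardian to Bcl2l11 mRNA were described with no test, and they leave out the other BH3-only members, of which Bid fell. The CPM ratio of Bcl2 to Bcl2l11 was 4.08 ± 0.42 in LPS (3.83 to 4.71), 0.540 ± 0.197 in LPS+ET (0.352 to 0.725) and 0.491 ± 0.268 in LPS+ET+KU (0.293 to 0.881). Without the library that went against its label, the LPS+ET ratio was 0.477 ± 0.170. Bcl2l11 was thus the less abundant of the pair in every LPS gradient and the more abundant one in every etoposide gradient. The ratio of Mcl1 to Bcl2l11 was 5.59 ± 0.89 in LPS (5.03 to 6.92) and 2.77 ± 0.72 in LPS+ET (1.84 to 3.49). In LPS+ET+KU it was 1.92 ± 0.37 (1.43 to 2.29), so Mcl1 stayed more abundant than Bcl2l11 in every gradient. Bcl2 made up 39.5 ± 0.65% of the summed CPM of Bcl2, Mcl1 and Bcl2l1 in LPS, 15.4 ± 7.67% in LPS+ET (14.2 ± 8.04% without that library) and 18.2 ± 8.15% in LPS+ET+KU. The sum itself was 612 ± 79.6, 460 ± 92.4 and 359 ± 40.8 CPM. Mcl1 was on average its largest part in LPS as well as after etoposide (331, 344.5 and 261 CPM). Bcl2a1b and Bcl2a1d, also listed as guardians, had no row and are not in the sum.

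The members were next compared within each class of fractions. In monosomes, LPS+ET against LPS called Bcl2l11 (1.62 ± 0.18, edgeR adjusted p 5.0e-05) and Bid (-1.84 ± 0.23, 0.000112), beside 9.52% of genes. Bcl2 was not called there (-0.67 ± 0.22, 0.0460). With the pool as a block, 24.6% of genes were called, Bcl2 (-0.70, 0.000778) and Bak1 (-0.61, 0.00314) among them. In light polysomes Bcl2 (-1.72, 0.000121), Bcl2l11 (1.16, 0.000835) and Bid (-1.49, 0.000183) were called beside 10.6% of genes, and with the pool (25%) Bak1 as well (-0.78, 0.00107). In heavy polysomes Bcl2 (-2.34 ± 0.36, 0.000401) and Bid (-1.35, 0.00218) were called, beside 9.69% of genes. Bcl2l11 was not called there (0.65, interval 0.07 to 1.23, 0.113). With the pool as a block (20.6% of genes) Bak1 (-0.97, 0.00205) and Bcl2l12 (-1.13, 0.00681) joined, and DESeq2 also called Bak1 (-0.94, 0.00546). Without fraction 15, heavy polysomes gave -2.63 for Bcl2 (9.3e-05) and -1.35 for Bid (0.00248), beside 10.2% of genes, and with the pool 4 members beside 21% of genes.

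The same classes were compared between LPS+ET+KU and LPS. In monosomes Bcl2l11 (1.49, edgeR adjusted p 0.000143), Bid (-1.65, 0.000272) and Bcl2 (-1.04, 0.00592) were called, beside 5.96% of genes. The Bcl2 call was lost in 6 of 8 fits that left out 1 gradient. In light polysomes the calls were Bcl2 (-1.83, 0.000166), Bcl2l11 (1.17, 0.00126) and Bid (-1.25, 0.00113), beside 7.13%. In heavy polysomes only Bcl2 was called (-2.55, 0.000357), beside 7.95%, whereas Bcl2l11 (1.09, 0.0137) and Bid (-0.99, 0.0158) were called with the pool as a block (1.02 and 0.000945, -0.98 and 0.00183, beside 21.4%) and in DESeq2. Mcl1 was not called in monosomes (-0.52, 0.0809) or light polysomes (-0.65, 0.0392), but it was in both with the pool as a block (-0.53, 0.00216, beside 23.2%, and -0.66, 0.000708, beside 24.1%). In light polysomes the block also added Bak1 (-0.58, 0.00948). Bcl2l12 had too few counts to be tested in monosomes.

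Where an mRNA sits on the gradient was described by its share in each fraction. Every fraction library was scaled to CPM, and the CPM of a gene were divided by their sum over the 13 fractions of a gradient. This gives all fractions equal weight, since libraries were made from equal RNA concentrations and their totals do not measure the mRNA of a fraction. A share thus places an mRNA relative to other mRNAs and is not the percent of its transcripts in a fraction. The paper reports a global loss of polysome assembly after etoposide, which this scaling does not show. In LPS, Bcl2l1 (fraction 11, 17.6 ± 1.67%), Bid (fraction 11, 16.7 ± 0.53%), Bcl2l11 (fraction 10, 12.9 ± 1.43%), Bak1 (fraction 10, 19.9 ± 2.90%) and Bad (fraction 9, 20.0 ± 4.29%) each had a peak in the light or early heavy polysomes. Mcl1 peaked at fraction 12 (11.6 ± 1.86%). Bcl2 had no sharp peak and stayed between 9.44% and 11.3% from fraction 11 to fraction 16, highest in fraction 14.

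After etoposide the profile of Bcl2 turned from the heavy end to the monosomes. By these scaled shares the monosomes held 18.99 ± 3.04% of Bcl2 in LPS, but 41.3 ± 7.60% after etoposide and 38.96 ± 4.36% with the inhibitor added. With fraction 15 left out of every gradient, these monosome shares were 20.95 ± 3.02%, 48.0 ± 2.67% and 40.3 ± 4.69%. The highest LPS+ET value, 14.0 ± 15.2% in fraction 15, came from the library labelled LPS+ET that resembled LPS libraries. Without it the fraction 15 share was 6.75 ± 5.26% (n = 3), and the profile was highest in fraction 4 with 14.2 ± 5.94% and lowest in fraction 16 with 4.21 ± 2.09%. The fraction 4 libraries held only 2 to 29 Bcl2 counts in LPS+ET, but fraction 5, with 24 to 150 counts, was close to it at 12.5 ± 1.05%, against 4.00 ± 1.74% in LPS. With the inhibitor the profile was highest in fraction 6, at 11.9 ± 1.37%. The peaks of the other members moved by at most 1 fraction.

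**Figure D4:**
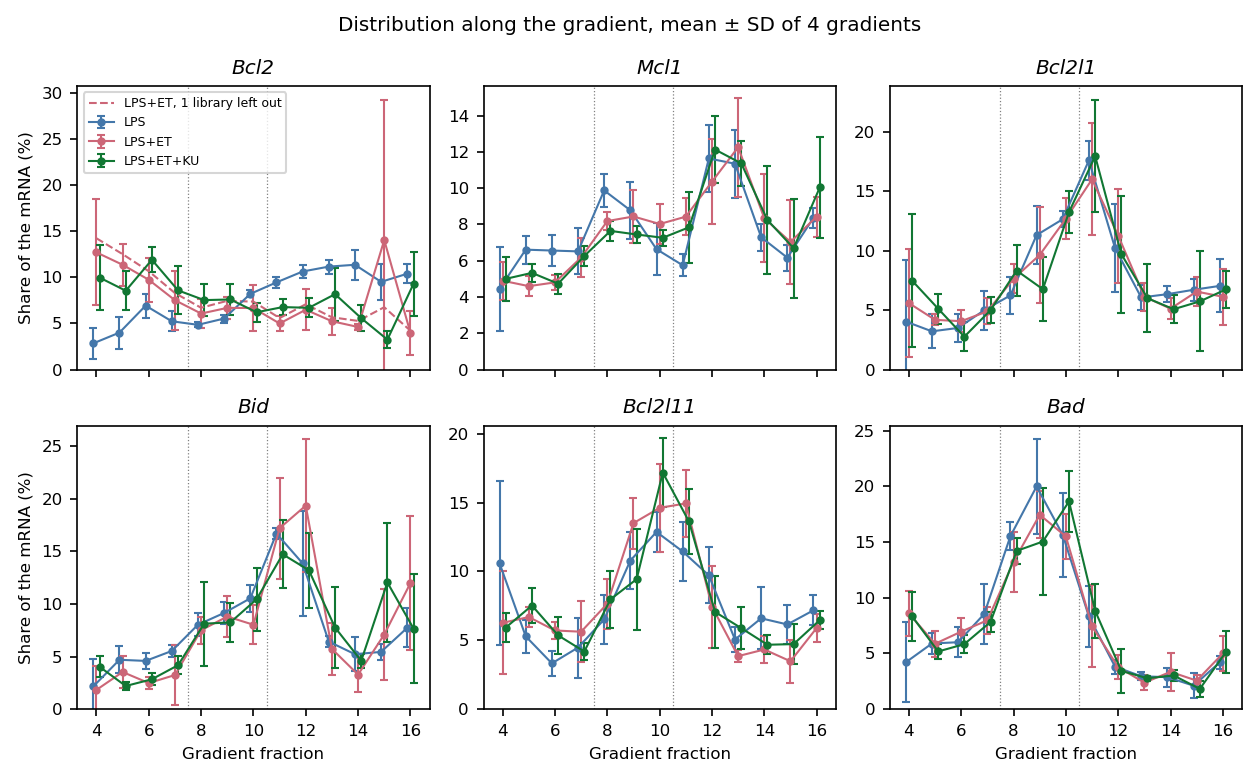
Share of the mRNA of Bcl2, Mcl1, Bcl2l1, Bid, Bcl2l11 and Bad in each gradient fraction, in percent, mean ± SD of 4 gradients per treatment, with dotted lines between monosomes, light and heavy polysomes. All fractions have equal weight. The dashed Bcl2 line leaves out the fraction 15 library labelled LPS+ET of pool LUL15 and lowers the fraction 15 share from 14.0% to 6.75%.

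Profiles were tested with edgeR on the single fraction libraries, against a model with fraction alone. This test treats the libraries of a gradient as independent, so its p-values are too small. LPS+ET against LPS called Bcl2 (adjusted p 3.2e-25), Bid (6.2e-18), Bcl2l11 (2.2e-13) and Bak1 (0.00259), beside 31% of 10360 genes. Without the library that resembled LPS, the same 4 were called beside 30.8% of 10950 genes. With the pool as a block (41.7%) Bad was added (0.000561, against 0.0232). DESeq2 also called Bad (1.8e-06) and did not call Bak1 (0.0721), and the Bak1 call was lost in 4 of 8 fits without 1 gradient (highest 0.103). When the treatment difference was allowed to vary along the fractions in a model with a term per gradient, which removes differences in level, only Bcl2 was called among the members (4.1e-11), beside 5.72% of genes. Without that library this was 1.4e-15, beside 5.56%. Bcl2l11 (0.172), Bid (0.374) and Bak1 (0.759) were not called in that model.

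In LPS+ET+KU against LPS+ET no member was called by the profile test, beside 8.01% of genes. Bcl2 came closest (edgeR adjusted p 0.0117) and was called with the pool as a block (0.000706, beside 18.3%) and with a term per gradient (0.00430, beside 3.63%). Both Bcl2 calls rested on 1 library. Without the library labelled LPS+ET that resembled LPS, its adjusted p was 0.634 in the test itself (7.19% of genes called), 0.362 with the block (17.0%) and 0.512 with a term per gradient (2.76%). Bcl2l1 was called with the block, at 0.00130 with that library and 0.00116 without it, against 0.285 and 0.328 with no block. With no block it was called in 1 of 8 fits without 1 gradient (0.00179, without LPS+ET+KU of LUL17), and in fractions 4 to 16 it was not called with the block (0.180).

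The heavy polysome share, the sum of the shares in fractions 11 to 16, was tested with limma on log2 odds for the 7999 genes that averaged at least 100 counts per gradient. Bcl2 held 62.7, 60.6, 67.2 and 59.2% in the LPS gradients, 53.7, 39.5, 32.5 and 31.5% in LPS+ET and 38.3, 47.1, 37.4 and 36.1% in LPS+ET+KU. Both etoposide groups lay wholly below LPS, and Bcl2 was the only member without overlap (13.5% of genes did not overlap between LPS+ET and LPS, and 16.3% between LPS+ET+KU and LPS). It was higher than 66.5% of 8000 genes in LPS and than 21.2% and 21.9% of them in LPS+ET and LPS+ET+KU. The differences, -1.38 ± 0.28 (SE, limma adjusted p 0.0228) and -1.34 ± 0.28 (0.0189), did not pass 0.01, where 0.313% and 0.875% of genes did.

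Leaving fraction 15 out of every gradient changed this result for LPS+ET. Bcl2 then held 58.3, 56.4, 63.2 and 56.3% in heavy polysomes in LPS and 27.8, 30.7, 30.3 and 28.5% in LPS+ET, so that the LPS+ET gradients lay close together and far below the LPS gradients (13.5% of genes did not overlap here). The difference was -1.77 on the log2 odds scale and was called (limma adjusted p 0.00113), beside 0.416% of genes. With the inhibitor Bcl2 held 36.03, 45.3, 34.6 and 34.9%, all above the LPS+ET gradients. Bcl2 was the only member without overlap between these groups, as were 4.59% of genes. The difference between these groups, 0.54, was not called (0.576), as for every gene (0.00% called with or without fraction 15). With all fractions the groups overlapped and differed by 0.04 (0.985), with 5.34% of genes not overlapping.

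Of the other members tested, none was called for its heavy polysome share in any comparison. In LPS, LPS+ET and LPS+ET+KU the mean shares were 54.0, 51.3 and 51.3% for Bcl2l1, 50.6, 54.9 and 56.3% for Mcl1, 46.1, 39.9 and 42.4% for Bcl2l11 and 55.4, 64.6 and 60.0% for Bid. The largest of their differences was that of Bid in LPS+ET (0.57, limma adjusted p 0.215), whose 95% interval ran from 0.03 to 1.10. Bak1 held 41.8, 38.8 and 39.8%. Bad was low throughout, with 24.2, 24.5 and 24.97%, a share that only 7.12% of genes undercut in LPS. The median gene held 55.2, 53.9 and 54.7%.

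**Figure D5:**
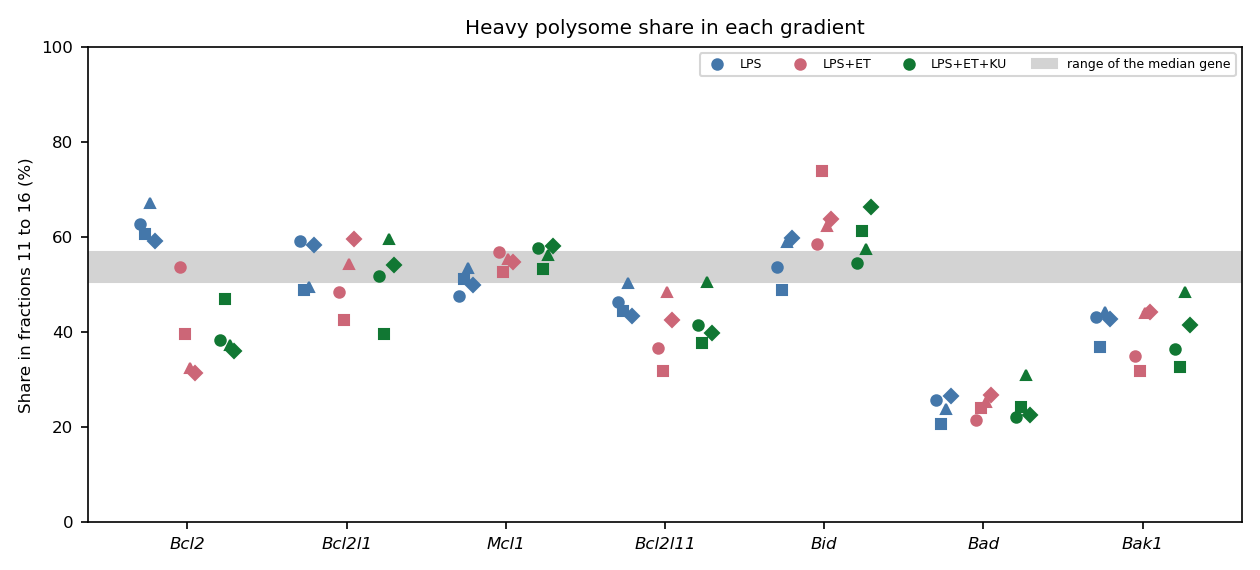
Share of each member in heavy polysomes (fractions 11 to 16, in percent) in each of 12 gradients, coloured by treatment with one marker shape per library pool, and the range of the median gene (50.5% to 56.8%) in grey. Bcl2 in LPS+ET and LPS+ET+KU lies below Bcl2 in LPS, and Bad lies between 20.6% and 30.9% in all gradients.

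Heavy polysomes were also compared with monosomes within each treatment, with edgeR on the summed counts and each gradient as a block. In LPS, Bcl2l1 was higher in heavy polysomes than in monosomes (log2 0.71 ± 0.17, edgeR adjusted p 0.000424) and Bad lower (-1.36 ± 0.14, 3.1e-10), beside 59.4% of genes called. By scaled shares, Bcl2l1 held 54.0% in heavy polysomes in LPS, near the median gene (55.2%), and 15.8 ± 6.48% in monosomes. In 1 of 4 fits without 1 gradient the Bcl2l1 call was lost (0.53, 0.0128). Bcl2 (0.18, 0.182) and Bid (0.37, 0.0198) were not called. In LPS+ET, Bcl2 was depleted from heavy polysomes (-1.35 ± 0.23, 0.000124) and Bid enriched (1.03 ± 0.27, 0.00461), with Bad again depleted (-1.39 ± 0.21, 4.1e-05), beside 40.3% of genes. Without fraction 15 these were -1.62 (2.0e-05), 1.03 (0.00663) and -1.35 (0.000120), beside 36.8%. In LPS+ET+KU the calls were Bcl2 (-1.31 ± 0.17, 1.5e-06), Bid (1.14 ± 0.20, 5.0e-05) and Bad (-1.10 ± 0.17, 9.4e-06), beside 50.2%.

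These within-treatment calls differed in a fit that changed both the weighting of fractions and the test. That fit gave fractions equal weight and used limma in place of edgeR. In LPS it called Bcl2 (1.14, limma adjusted p 7.7e-05) and Bid (1.13, 0.00144) higher in heavy polysomes than in monosomes. Bad was not called (-0.56, 0.0485). In LPS+ET the same fit gave Bcl2 -0.66 (0.0235). It had no TMM step, so 0 need not be the typical gene. The mean heavy polysome share in LPS was 55.4% for Bid and 62.4% for Bcl2, beside 55.2% for the median gene. Over all alternatives 3966 to 5733 genes were called in LPS, against 5733 as reported. The call of Bid in LPS+ET was lost in DESeq2 (0.93, 0.0149) and in 3 of 4 fits without 1 gradient (0.83 to 1.07, highest adjusted p 0.0553), and without the gradient block Bid in LPS+ET (1.05, 0.0156) and Bcl2 in LPS+ET+KU (-1.23, 0.0129) were lost.

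Other genes of the pathway came from lists fixed by name. Of 14 further family genes 11 were in the table and 9 were tested, and none was called in fractions 4 to 16 in LPS+ET against LPS, LPS+ET+KU against LPS+ET or LPS+ET+KU against LPS, beside 12.7%, 0.455% and 10.7% of all genes. A count of 0 among 9 genes does not stand apart from those shares. With the pool as a block, Bnip3 alone of the 9 was called, in LPS+ET against LPS (log2 -1.58, edgeR adjusted p 0.00796, against -0.99 and 0.374 with no block). Their median log2 difference was 0.40 in LPS+ET against LPS, beside 0.03 over all genes. The most abundant were Becn1, an autophagy gene, with 135.9, 193 and 193 CPM in LPS, LPS+ET and LPS+ET+KU, and the mitophagy receptors Bnip3, with 79.7, 43.4 and 73.6 CPM, and Bnip3l, with 54.8, 62.4 and 121.4 CPM. Both varied widely between the LPS+ET+KU gradients, Bnip3 from 17.6 to 202.4 CPM and Bnip3l from 48.5 to 289 CPM.

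Of 23 partners and regulators 22 were tested, and 1 rose and 2 fell in LPS+ET against LPS, about the rate of all genes (12.7%). Foxo3, a transcription factor that can activate Bcl2l11, rose from 22.8 ± 1.73 to 52.5 ± 11.4 CPM (log2 1.09 ± 0.19, edgeR adjusted p 0.00103). Foxo1, a related factor of B cells, fell from 94.4 ± 12.5 to 59.2 ± 4.80 CPM (-0.78 ± 0.18, 0.00615). Htra2, a mitochondrial protease, fell from 357 ± 53.2 to 199.7 ± 66.0 CPM (-0.95 ± 0.23, 0.00999), just past the threshold. In LPS+ET+KU against LPS, Foxo1 (-0.97, 0.00199) and Huwe1 (-1.28, 0.00220), a ubiquitin ligase of MCL1, fell, and Foxo3 was not called (0.49, 0.0745). These 2 of 22 are likewise near the 10.7% of all genes. No partner was called in LPS+ET+KU against LPS+ET, beside 0.455% of all genes. Without fraction 15, the same 3 partners were called in LPS+ET against LPS, Htra2 at 0.00805, and none in LPS+ET+KU against LPS+ET.

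The pool as a block also changed the counts of partners. In LPS+ET against LPS 1 rose and 7 fell, beside 26.7% of all genes, and in LPS+ET+KU against LPS 2 rose and 7 fell, beside 28.1%. Foxo3 (edgeR adjusted p 5.2e-05), Foxo1 (0.000223) and Htra2 (4.0e-05) were called in the first and Foxo1 (4.5e-05) and Huwe1 (6.2e-05) in the second, as they were with no block. In LPS+ET+KU against LPS+ET 3 rose, beside 6.36% of all genes. These were Pim1 (0.84, 0.00117) and Pim2 (1.04, 0.00145), kinases that phosphorylate BAD, and Htra2 (0.58, 0.00878). All 3 were also called lower in LPS+ET against LPS with the block, Pim1 by -0.71 (0.000702), Pim2 by -1.01 (0.000292) and Htra2 by -0.99. These comparisons share the LPS+ET gradients. With no block, Pim1 (0.81, 0.270), Pim2 (1.12, 0.0902) and Htra2 (0.54, 0.270) were not called in LPS+ET+KU against LPS+ET, and the 3 genes are named here after their values were seen.

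For comparison, the p53 death genes of the family rose in LPS+ET against LPS, Bax by 1.20, Bbc3 by 2.18 and Pmaip1 by 2.54 on the log2 scale, and all 3 were also called with the pool as a block (edgeR, highest adjusted p 3.3e-05, for Bax). Genes with the level pattern most like that of 3 members were taken by Pearson correlation of log2 CPM over the 12 gradients among 8000 genes, which share gradients and depth. For Bcl2 these included Ccdc50 (r = 0.987) and Hmgcs1 (0.986), for Bcl2l11 they were Tjap1 (0.986), Nr4a3 (0.981) and Mppe1 (0.980) and for Mcl1 they were Metap2 (0.962), Psmc2 (0.940) and Mipol1 (0.932).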

How the data were processed

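The data were 157 libraries of 3′ end sequencing of polysome fractions from splenic B cells. Per the file headers and the study's methods, the authors sequenced mRNA 3′ ends with random barcodes, removed PCR duplicates, trimmed the A tract, aligned the reads to the mouse genome and deposited whole-number counts per Ensembl gene summed over poly(A) sites, not normalized. The submitters' processing notes name TopHat2 2.0.12, TopHat, HTSeq and DESeq2 1.6.3 and the builds GRCm38 and mm10. Libraries were made from equal RNA concentrations, so that a library total does not measure how much mRNA a fraction held. Coordinates in the table count from 0 and are given here from 1. Of the columns, 79 matched 1 labelled sample by name and 78 (pools LUL16 and LUL18) matched treatment and fraction only. One LPS library of fraction 17 (777 counts) entered no comparison. Totals ranged from 14724 to 4170688 counts.

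Counts were summed per gradient over fractions 4 to 16, 4 to 7, 8 to 10 and 11 to 16 and tested over all genes with edgeR 4.0.16 (R 4.3.3, TMM, filterByExpr, quasi-likelihood F-test, two-sided, treatment as the only term, all 12 gradients sharing 1 estimate of the spread). Calls were made at an adjusted p (Benjamini-Hochberg) below 0.01. SEs are the log2 difference divided by the square root of F. CPM use the summed counts. The heavy polysome share used fractions scaled to CPM, genes that averaged at least 100 counts per gradient, 0.5 counts added in the log2 odds, and limma 3.58.1. Profiles used single libraries of a pair of treatments. Heavy polysomes and monosomes were compared with the gradient as a block. Libraries were compared by Pearson's r of log2(CPM + 5). The alternatives were DESeq2 1.42.0, other filters and normalizations, each gradient left out, the library pool as a block and, chosen after seeing the data, shares without fractions 4 and 12 and fits without fraction 15 or without 1 library of it. The tests across genes were tested on simulated counts with 200 changed genes. These simulations held no pool effect and no link between fractions of a gradient, so they do not show how the fits handle either. Poly(A) signals were searched on the transcript strand. Python 3.11.15, numpy 2.4.6, pandas 2.3.3, scipy 1.17.1 and matplotlib 3.10.9 were used.

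Replicate numbers are library pools in the column names. Deviations from the treatment means correlated between gradients of the same pool in all 12 pairs (0.31 to 0.80, median 0.58, against -0.63 to 0.29 in 36 pairs of different pools), and the pools therefore pair the gradients. Blocked values are given beside each result on a member whose call they changed, and for the other listed genes in fractions 4 to 16. P-values measure the spread between these gradients, except in the profile tests, where they measure that between single fraction libraries. The members and all gene lists were chosen with earlier results of these data known. Named genes were the members, Bax, Bbc3 and Pmaip1, the called or 3 most abundant genes of the other family list, the called partners and the 3 genes most like Mcl1, Bcl2 and Bcl2l11, of which 1 is not reported here.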

Additional observations from a re-analysis of the deposited data

Results flagged for a closer look

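The treatment difference of Bcl2 varied along the fractions in LPS+ET against LPS, tested with edgeR with a term per gradient (adjusted p 4.1e-11, and 1.4e-15 without the fraction 15 library labelled LPS+ET of pool LUL15). The heavy polysome share of Bcl2 was lower than in the LPS gradients in 4 of 4 LPS+ET gradients. The same term passed for Bcl2 in LPS+ET+KU against LPS+ET (0.00430), but not without that library (0.512). Among 45 groups of 4 gradients (CPM and heavy polysome share of the members), none held a gradient whose gap to its nearest neighbour passed Dixon's 95% critical value, where chance flags 2.25 groups on average.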

How the results depend on the processing

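The counts of members called moved by more than 1.5 times under these alternatives. With the library pool as a block, 5 members in place of 3 were called in fractions 4 to 16 in both comparisons with LPS, 4 in place of 2 in monosomes and in heavy polysomes of LPS+ET against LPS, 5 in place of 3 in light polysomes and 3 in place of 1 in heavy polysomes of LPS+ET+KU against LPS, and 2 in place of 0 in the profiles of LPS+ET+KU against LPS+ET (1 without the library that went against its label). With fraction 15 left out, the block gave 5 in fractions 4 to 16 and 4 in heavy polysomes of LPS+ET against LPS, and the heavy polysome share gave 1 in place of 0. DESeq2 called 3 in place of 1 in heavy polysomes of LPS+ET+KU against LPS. Equal weight per fraction with limma in place of edgeR called 5 in heavy polysomes against monosomes in LPS (in place of 2) and in LPS+ET+KU (in place of 3). In the profiles, the interaction alone, the interaction with a term per gradient and the latter without that library each called 1 in place of 4 in LPS+ET against LPS, and the term per gradient called 1 in place of 0 in LPS+ET+KU against LPS+ET. Leaving out 1 gradient gave 1 to 2 members in heavy polysomes of LPS+ET+KU against LPS, 0 to 1 for the heavy polysome share of LPS+ET against LPS (Bcl2, -1.66, limma adjusted p 0.00770, without LPS+ET of LUL15), 1 to 3 in heavy polysomes against monosomes in LPS and 0 to 1 in the profiles of LPS+ET+KU against LPS+ET. Counts also moved by 1, within 1.5 times, in other fits. With the block they went from 3 to 4 in light polysomes of LPS+ET against LPS and in monosomes of LPS+ET+KU against LPS, and from 4 to 5 in the LPS+ET profiles, and with DESeq2 from 2 to 3 in heavy polysomes of LPS+ET against LPS. In heavy polysomes against monosomes they went from 3 to 2 with DESeq2 in LPS+ET and without the gradient block in LPS+ET and LPS+ET+KU. Without 1 gradient they ran from 3 to 5 in the LPS+ET profiles, 2 to 3 in monosomes of LPS+ET+KU against LPS and in heavy polysomes against monosomes in LPS+ET, and 3 to 4 in the latter in LPS+ET+KU. Signs turned only for values that were not called. These were Bcl2 in LPS+ET+KU against LPS+ET without fraction 15 (0.065 and, with the block, 0.072 in fractions 4 to 16, 0.10 and 0.053 in heavy polysomes), its heavy polysome share there on counts as deposited (-0.64) and without fractions 4 and 12 (-0.031), and the Mcl1 share in LPS+ET+KU against LPS on counts as deposited (-0.13). Without 1 gradient they also turned within -0.12 to 0.32 for Bcl2l1 and -0.15 to 0.061 for Mcl1 in LPS+ET against LPS. For LPS+ET+KU against LPS+ET the ranges were -0.36 to 0.13 for Bcl2 (-0.63 to 0.026 in heavy polysomes, -0.12 to 0.32 for its share), -0.17 to 0.060 for Bad and -0.44 to 0.19 for Bcl2l12. The cause was not tested. Beyond the calls given beside the results, the pool as a block changed no call of a member reported here; other listed genes were refitted with it, after seeing the data, in fractions 4 to 16 only. The number of genes called over all alternatives ran from 1082 to 3403 in fractions 4 to 16 of LPS+ET against LPS (1618 as reported), 755 to 3589 of LPS+ET+KU against LPS (1361) and 0 to 811 of LPS+ET+KU against LPS+ET (58). Heavy polysomes gave 721 to 2361 in LPS+ET against LPS (1101) and 457 to 2433 in LPS+ET+KU against LPS (904). Profiles gave 142 to 4507 in LPS+ET against LPS (3208) and 110 to 1919 in LPS+ET+KU against LPS+ET (839). Heavy polysomes against monosomes gave 3966 to 5733 in LPS (5733), 2157 to 4919 in LPS+ET (3486) and 2317 to 6202 in LPS+ET+KU (5398). The heavy polysome share of LPS+ET against LPS gave 0 to 50 (25). A sum over Bcl2a1 genes was not run, since these had no row. Depth limits Bcl2l12 (17 to 159 counts per gradient) and single fractions of Bcl2 with as few as 1 count.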

Other observations

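The fraction 17 library of LPS held 1 count each of Bid and Bak1 and 0 counts of the other 6 members with a row, below the floor of 3 counts.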
